A study of Mus musculus with 4 samples.

Results

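Epas1 and Hif1a encode the oxygen-regulated subunits of the hypoxia-inducible transcription factors HIF-2 and HIF-1. They were followed here together with 8 enzymes of glycolysis, Hk1, Aldoa, Tpi1, Gapdh, Pgk1, Eno1, Pkm and Ldha. The 10 genes were chosen by name from the 32285 genes of the mouse annotation. They were followed in single cells of the hyaloid vessels, the transient vasculature of the vitreous body. One group was Gpr124 fl/fl, Cre-negative pups with floxed alleles of Gpr124, the gene of a WNT7 co-receptor that is named Adgra2 in the annotation. The other was Gpr124 dEC/dEC, littermates with the same floxed alleles and VECad-Cre-ERT2, a tamoxifen-inducible Cre driven by the VE-cadherin promoter in endothelial cells. All pups received tamoxifen, and vitreous bodies were taken at postnatal day 6 and pooled by genotype. Each genotype was therefore 1 pooled suspension, sorted into 1 plate by the endothelial surface protein CD31 and 1 plate by the pericyte surface protein PDGFRB. The Gpr124 dEC/dEC PDGFRB-gate plate also held some wells of the CD31 gate.

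Of 1536 wells, 32 were kept as cells with 1000 to 8000 unique molecular identifiers (UMIs, each standing for 1 captured transcript), after the plates were scaled to the highest median per well, and with less than 10% mitochondrial UMIs. Wells with Cldn5 and no Pdgfrb were called endothelial, and wells with Pdgfrb and no Cldn5 were called pericytes. Gpr124 fl/fl gave 5 endothelial cells and 9 pericytes, and Gpr124 dEC/dEC gave 6 and 12. A further 3 wells had both markers and 7 had neither. The gate of a plate did not fix the class of its cells. The Gpr124 fl/fl CD31-gate plate gave 2 endothelial cells and 6 pericytes, and its PDGFRB-gate plate 3 and 3. In Gpr124 dEC/dEC these plates gave 4 and 0, and 2 and 12. Because the last of these plates held wells of both gates, ratios within the PDGFRB-gate plates are not strictly of 1 gate. Plates held 51972 to 174645 UMIs. The endothelial cells held 31048 UMIs in all and the pericytes 80460. The 4 Gpr124 dEC/dEC endothelial cells of the CD31-gate plate were shallow, and 1 cell of the other plate gave 43.5% of the UMIs of that group. In 6 retained cells the well barcode was also that of a retained cell in another plate.

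The gene lists for each class went with its label, also without Cldn5 and Pdgfrb, the 2 genes that chose the classes and were 0 by rule in the other class. A list of 15 endothelial markers summed to 112 to 184 UMIs per 10000 in the endothelial sums of the 4 plates and to 14.3 and 17.4 in the Gpr124 dEC/dEC and Gpr124 fl/fl pericytes. A list of 15 pericyte markers summed to 126 to 198 in pericytes and to 8.93 to 36.9 in endothelial cells, highest in those of the Gpr124 fl/fl CD31-gate plate. Without Cldn5, the endothelial list summed to 85.9 to 162 in the endothelial sums and to 15.5 over all pericytes. Without Pdgfrb, the pericyte list summed to 113 to 186 in pericytes. The erythroid list stood at 260 in the 3 endothelial cells of the PDGFRB-gate plate of Gpr124 fl/fl, and at 0 to 11.8 in the other endothelial sums and 2.13 to 6.41 in pericytes. Macrophage markers reached 3.52 at most, fibroblast markers 8.51, retinal markers 1.61 and lens markers 0.555, while the astrocyte and melanocyte lists had 0 UMIs. The targeted gene, Adgra2, had 2 UMIs in endothelial cells from the Gpr124 fl/fl CD31-gate plate, 1 in those from the PDGFRB-gate plate and 0 in both Gpr124 dEC/dEC plates. Both genotypes were thus at or under the floor of 3 UMIs used here, and no fold is given. In pericytes, which the Cre driver does not target, Adgra2 had 17 UMIs in Gpr124 dEC/dEC and 7 in Gpr124 fl/fl. UMIs tag transcript ends and so do not measure the deletion itself.

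In well-oxygenated cells, prolyl hydroxylases mark HIF alpha subunits and the VHL complex removes them, so that protein level is set largely after transcription and messenger level is not a measure of HIF activity. When oxygen falls, the subunits persist, pair with ARNT and bind DNA with the core ACGTG or GCGTG. HIF-1 is best known for raising glycolytic genes, and EPAS1 (HIF-2 alpha) is prominent in endothelial and perivascular cells. Glycolysis splits glucose to pyruvate, and lactate dehydrogenase turns pyruvate to lactate.

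Promoter sequence was available in RefSeq windows of 300 bases for 9 of the 10 genes on GRCm38.p6, and no window was found for Epas1. The core ACGTG or GCGTG was searched on both strands, overlapping matches included. It was present in 12 of 16 windows and in at least 1 window of 8 of the 9 genes, Tpi1 having none, against 43.8% of all 32851 windows in the table. Windows of the same gene could overlap and share matches, as in Aldoa and Eno1. A gene with several windows has more chances of a match, so the 8 of 9 genes do not compare with the 43.8%. ACGTG alone was in 19.6% of all windows and GCGTG alone in 32.4%. The stretches before the transcript start of a RefSeq window of Ldha (chr7:46845639-46845788, plus strand), Pgk1 (chrX:106186930-106186993, plus strand) and Aldoa (chr7:126799356-126799400, minus strand) are shown as textbook HIF target genes among the enzymes. Those of Ldha and Aldoa lie inside the annotated gene. Slc2a1 (chr4:119108664-119108733, plus strand), which encodes the glucose transporter GLUT1, is shown because it gave the clearest class difference among the related genes described further on. Capitals mark the core letters read on either strand, and a match describes letters only.
Ldha: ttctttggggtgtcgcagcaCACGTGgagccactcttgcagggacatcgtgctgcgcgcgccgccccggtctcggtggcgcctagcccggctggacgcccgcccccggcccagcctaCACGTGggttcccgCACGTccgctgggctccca
Pgk1: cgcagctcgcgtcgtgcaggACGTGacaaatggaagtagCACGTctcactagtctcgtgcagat
Aldoa: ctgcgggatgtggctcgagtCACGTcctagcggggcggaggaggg
Slc2a1: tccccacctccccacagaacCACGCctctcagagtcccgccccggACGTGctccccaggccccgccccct
In Ldha, where the letters CACGTG read the same on both strands and so count once on each, 5 matches lay before the start.

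Epas1 (chr17:86753700-86833410, plus strand) was the most abundant of the 10 genes in both classes. UMIs are counted once per transcript whatever its length, so levels were compared between genes as UMIs per 10000. In pericytes, 198 UMIs gave a pooled level of 24.6 per 10000 (exact Poisson 95% interval 21.3 to 28.3), which ranked Epas1 26th among the 9617 genes with a UMI in that class. In endothelial cells, 36 UMIs gave 11.6 (8.12 to 16.1), rank 117 among 6969 genes. Intervals cover counting error only. In pericytes, Epas1 stood above the next gene, Gapdh, with an interval of their ratio that left out 1. In endothelial cells, no gene differed from its neighbour in the order of levels beyond counting error.

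Epas1 was lower in endothelial cells than in pericytes. In the endothelial cells of Gpr124 dEC/dEC it stood at 25.3 UMIs per 10000 on the CD31-gate plate and 12.1 on the PDGFRB-gate plate, and in those of Gpr124 fl/fl at 11.2 and 2.23. In pericytes it stood at 23.8, 23.3 and 29.1 in the PDGFRB-gate plate of Gpr124 dEC/dEC and the CD31-gate and PDGFRB-gate plates of Gpr124 fl/fl. The pericyte sums lay close together, 3 of the 4 endothelial sums lay below them, and the endothelial sum of the Gpr124 dEC/dEC CD31-gate plate lay among them. Pooled within Gpr124 fl/fl, Epas1 was at 5.93 (2.71 to 11.3) in endothelial cells and 25.8 (20.6 to 32.0) in pericytes. Within Gpr124 dEC/dEC it was at 17.0 (11.2 to 24.8) and 23.8 (19.6 to 28.5), with counting intervals that overlapped. The fit scales each sum by the 148 genes tested rather than by all UMIs. On that scale the endothelial sums, at 6.86 to 93.0 per 10000 UMIs of tested genes, all lay below the pericyte sums, at 107 to 125. The quasi-likelihood test of edgeR on the 7 sums of class and plate gave a log2 fold change of -1.49 (SE 0.32), with a Benjamini-Hochberg adjusted p of 2.07e-05. Among the 148 genes tested, 24.3% were called lower and 10.1% higher in endothelial cells. Epas1 was the only one of the 10 genes that passed the filter on low counts, and 1 of 1 tested was called lower. Without the Gpr124 dEC/dEC PDGFRB-gate plate, which held all 12 Gpr124 dEC/dEC pericytes, the log2 fold change was -1.57 with an adjusted p of 0.0734. Without the PDGFRB-gate plate of Gpr124 fl/fl, whose 3 endothelial cells carried the erythroid transcripts, it was -0.99 with an adjusted p of 0.0129. Sums of 1 genotype came from 1 suspension, so the p-values measure the spread between plates, which may be technical.

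**Figure D1:**
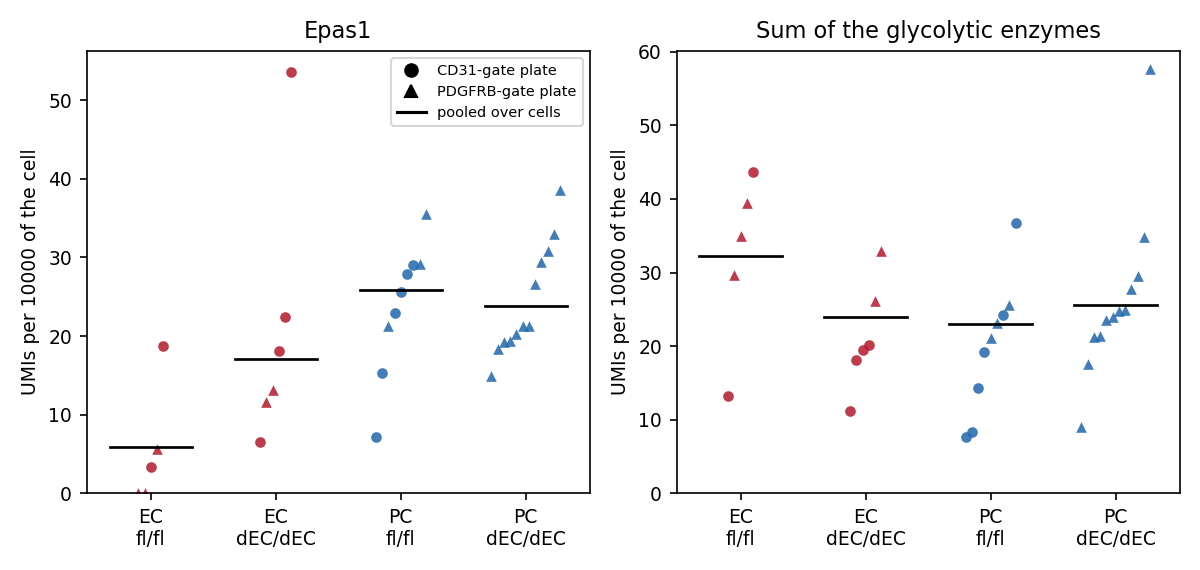
UMIs of Epas1 (left) and of the 8 enzymes together (right) per 10000 UMIs of each cell, by class (EC, endothelial; PC, pericyte) and genotype. Each circle is a cell of a CD31-gate plate, each triangle a cell of a PDGFRB-gate plate, and the bar is the value pooled over the cells; Epas1 lay above 0 in all 21 pericytes and spread from 0 to 53.6 in endothelial cells.

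Single pericytes differed in Epas1 by no more than counting error. The 11 endothelial cells together differed by more, with 1 high cell in each genotype. All 21 pericytes had a UMI of Epas1 (100%, exact Clopper-Pearson interval 83.9 to 100), at 7.12 to 38.6 per 10000 with a median of 23.0. Of the endothelial cells, 9 of 11 had one (81.8%, 48.2 to 97.7). After each cell was thinned to 1000 UMIs, with no cell left out, 90.7% of pericytes and 60.5% of endothelial cells kept one. The index of dispersion, which is 1 where cells differ by counting error alone, was 0.70 for Epas1 in pericytes and 3.59 in endothelial cells. Within a genotype, it was 3.10 in Gpr124 fl/fl and 2.90 in Gpr124 dEC/dEC endothelial cells, against 0.68 and 0.75 in pericytes. The highest Gpr124 fl/fl endothelial cell held 6 of the 9 Epas1 UMIs of its group, with 3205 of 15184 UMIs. The highest Gpr124 dEC/dEC endothelial cell held 8 of 27, with 1492 of 15864 UMIs. The index was not computed without these cells, so the excess may rest on them. For the sum of the enzymes, the index was 1.04 in endothelial cells and 1.24 in pericytes.

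Among endothelial cells, the highest value of Epas1 was 53.6 per 10000, from 8 UMIs in a Gpr124 dEC/dEC cell of the CD31-gate plate with 1492 UMIs. The other 3 endothelial cells of that plate stood at 6.49, 18.1 and 22.4. The 2 of the Gpr124 dEC/dEC PDGFRB-gate plate stood at 11.6 and 13.2. In Gpr124 fl/fl, the 2 cells of the CD31-gate plate stood at 3.31 and 18.7, and the 3 of the PDGFRB-gate plate at 0, 0 and 5.64. These last 3 cells carried erythroid transcripts at 224 to 367 per 10000, against at most 32.4 in the other endothelial cells. The part of those transcripts in the low Epas1 of these cells was not tested. The cell with the highest Epas1 had pericyte markers at 6.70 per 10000, against 0 to 44.8 in the other endothelial cells. The part of pericyte transcripts in the Epas1 of that cell was not tested.

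Hif1a (chr12:73901375-73947530, plus strand) was close to the limit of detection. No endothelial cell had a UMI of Hif1a, and 0 UMIs of 31048 allow up to 0.966 per 10000 (3 UMIs). In pericytes, 3 UMIs in the Gpr124 fl/fl CD31-gate plate, 0 in the PDGFRB-gate plate of Gpr124 fl/fl and 4 in the Gpr124 dEC/dEC PDGFRB-gate plate gave 0.870 per 10000 (0.350 to 1.79). Each of the 7 pericytes with a UMI had 1. The pericyte level lay below the endothelial limit, so a difference between the classes was not detectable at this depth. Epas1 thus had 198 UMIs in the pericytes and Hif1a 7, and in the endothelial cells 36 and 0.

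**Figure D2:**
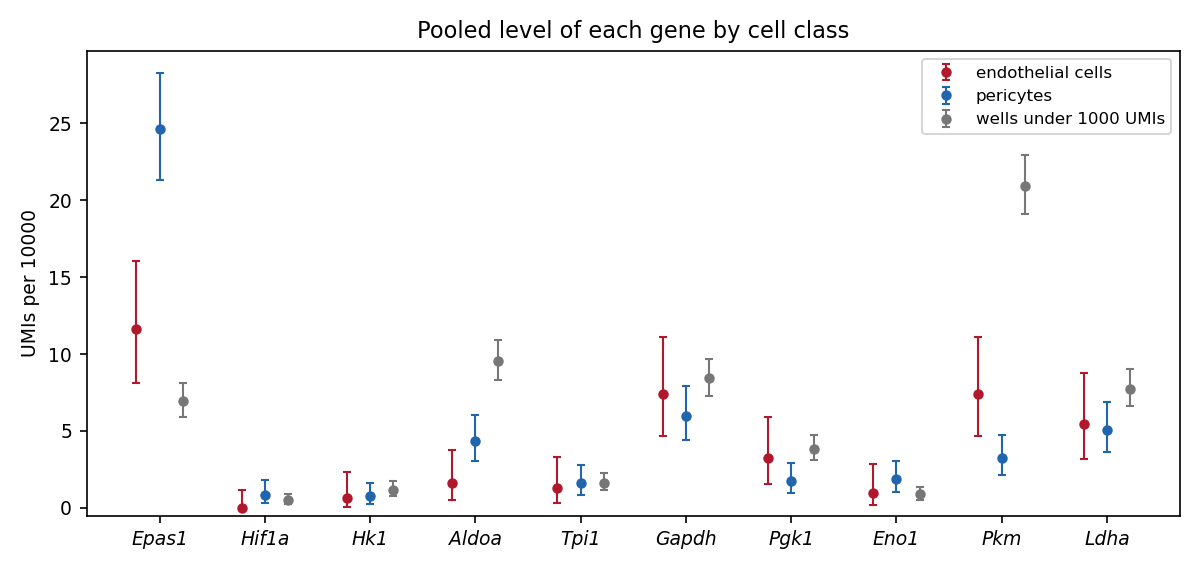
Pooled UMIs per 10000 of each of the 10 genes in endothelial cells, pericytes and the 1478 wells under 1000 UMIs. Points are pooled levels and bars exact Poisson 95% intervals; Epas1 was highest in pericytes at 24.6, and Pkm was highest in the wells under 1000 UMIs at 20.9.

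The 8 enzymes together did not differ between the classes beyond counting error. Their sum was 16.9, 28.2, 28.9 and 34.6 per 10000 in the endothelial sums of the CD31-gate and PDGFRB-gate plates of Gpr124 dEC/dEC and then of Gpr124 fl/fl. In pericytes it was 25.6, 22.8 and 23.4 in the PDGFRB-gate plate of Gpr124 dEC/dEC and the CD31-gate and PDGFRB-gate plates of Gpr124 fl/fl. The pericyte sums lay inside the range of the endothelial sums. Pooled over cells, 87 endothelial UMIs gave 28.0 per 10000 and 198 pericyte UMIs gave 24.6. The log2 ratio was 0.19 (exact interval -0.19 to 0.56). No enzyme passed the filter on low counts, and without that filter no enzyme was called by edgeR (adjusted p 0.201 to 0.998), the 1 unadjusted p under 0.05 being that of Aldoa (0.00837). Its log2 fold change in that fit was -2.05, where the median over all 10829 genes was itself -1.15.

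Hk1, the hexokinase that traps glucose by phosphorylation, had 2 UMIs in endothelial cells and 6 in pericytes. Aldoa, the aldolase that splits fructose bisphosphate, is listed under 2 gene identifiers, of which 1 had 0 UMIs. It stood at 0 to 3.38 per 10000 in the endothelial sums and 1.11 to 5.58 in the pericyte sums, which overlapped. Pooled, it was 1.61 against 4.35, a log2 ratio of -1.43 (-3.14 to -0.08). Without the PDGFRB-gate plate of Gpr124 dEC/dEC the ratio was -0.39 (-2.58 to 1.51), and without the PDGFRB-gate plate of Gpr124 fl/fl it was -1.69, both with intervals that held 0. Aldoa had a UMI in 4 of 11 endothelial cells and 15 of 21 pericytes. Tpi1, which interconverts the triose phosphates, had 4 and 13 UMIs, 1.29 and 1.62 per 10000.

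Gapdh, which oxidises glyceraldehyde phosphate, was the most abundant enzyme of pericytes at 5.97 per 10000 and stood at 7.41 in endothelial cells, a log2 ratio of 0.31 (-0.47 to 1.06). Pgk1, the first step of glycolysis to yield ATP, was at 3.22 in endothelial cells and 1.74 in pericytes, 0.89 (-0.44 to 2.16). All 10 endothelial UMIs of Pgk1 came from the PDGFRB-gate plates, 4 in Gpr124 dEC/dEC and 6 in Gpr124 fl/fl, and none from the CD31-gate plates. Eno1, the enolase, had 3 endothelial UMIs, all in the 2 cells of the Gpr124 dEC/dEC PDGFRB-gate plate, and 15 in pericytes. Reads of Eno1 and of its near copy Eno1b, which had 8 UMIs over both classes, may be split between them.

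Pkm, the pyruvate kinase of muscle and proliferating cells, was the enzyme whose class sums did not overlap. It stood at 6.75, 7.04, 9.64 and 6.70 per 10000 in the endothelial sums of the CD31-gate and PDGFRB-gate plates of Gpr124 dEC/dEC and then of Gpr124 fl/fl. In the pericyte sums it stood at 3.10, 2.22 and 4.97 in the PDGFRB-gate plate of Gpr124 dEC/dEC and the CD31-gate and PDGFRB-gate plates of Gpr124 fl/fl. All endothelial sums lay above all pericyte sums. Of 2689 genes with at least 10 UMIs over both classes, 5.69% were likewise higher in every endothelial sum, and of the 8 followed genes with as many, Pkm was the 1. Pooled, 23 and 26 UMIs gave 7.41 and 3.23, a log2 ratio of 1.20 (0.32 to 2.06). Without the low-count filter, edgeR gave Pkm a log2 fold change of 0.34 with an adjusted p of 0.756, so the difference did not pass the test across genes. The median over the 10829 genes of that fit was -1.15. Pkm had a UMI in 10 of 11 endothelial cells and 15 of 21 pericytes, and after thinning in 60.5% and 29.5%. Ldha, which makes lactate from pyruvate, was at 5.48 and 5.10 in the classes, a log2 ratio of 0.10 (-0.81 to 0.95). Its pericyte values spread more than counting error (index 1.86) and reached 25.6 per 10000 in 1 Gpr124 dEC/dEC pericyte.

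**Figure D3:**
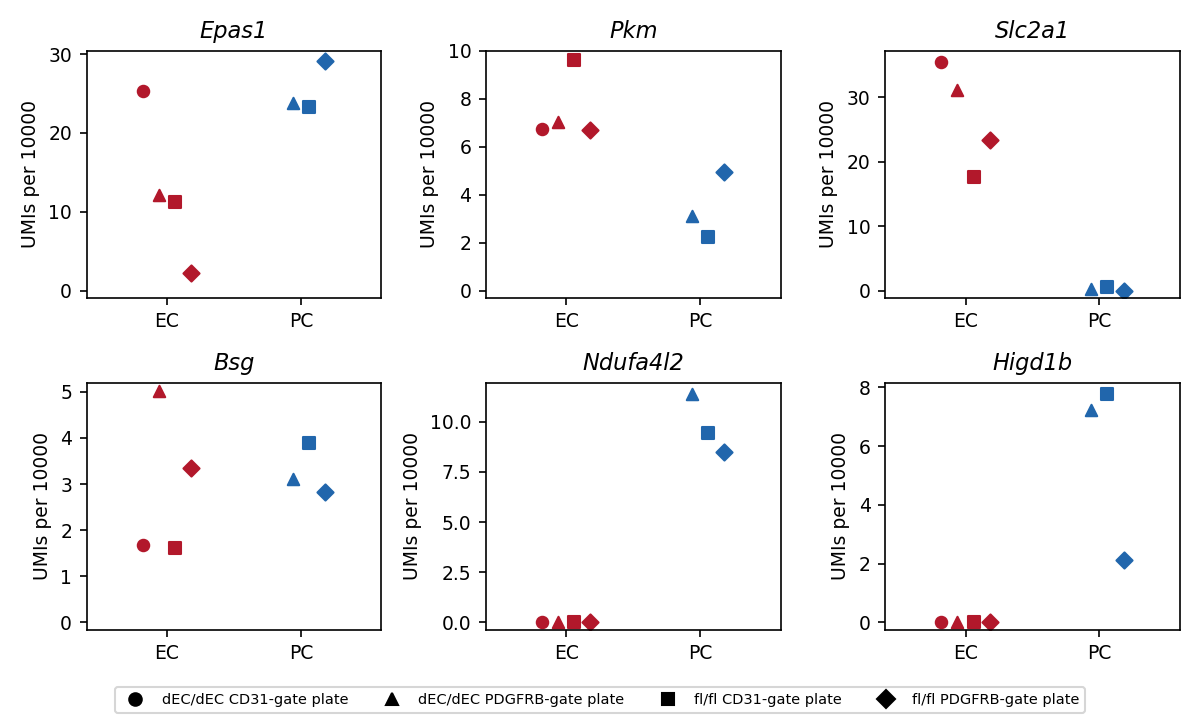
UMIs per 10000 of 6 genes in each sum of class (EC, endothelial; PC, pericyte) and plate, the symbol marking the plate. Epas1 overlapped between the classes in 1 endothelial sum, Pkm and Slc2a1 were higher in every endothelial sum, Bsg overlapped, and Ndufa4l2 and Higd1b were at 0 in every endothelial sum.

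Around the glycolytic enzymes, the glucose transporter Slc2a1 was higher in endothelial cells. A list of 19 genes of glucose, lactate and pyruvate handling summed to 25.7 to 42.2 per 10000 in the endothelial sums and 9.93 to 11.8 in the pericyte sums. Slc2a1 made up most of the endothelial value, with 84 UMIs (27.1 per 10000) against 2 in pericytes (0.249). Without it, the other 18 genes summed to 6.75 to 13.4 in the endothelial and 9.44 to 11.6 in the pericyte sums, which overlapped. Its fitted log2 fold change was 5.99 (SE 0.63, edgeR adjusted p 8.07e-19), and it was the only gene of the list that passed the filter on low counts. Slc2a3, the high-affinity transporter GLUT3, had 0 endothelial and 10 pericyte UMIs, 1.29-fold lower with the endothelial side set at the floor of 3 UMIs. Without the low-count filter, edgeR did not call Slc2a3 (adjusted p 0.272). Bsg, the chaperone of lactate transporters, did not differ beyond counting error, at 3.22 and 3.23 (log2 ratio 0.00, -1.22 to 1.10). The pyruvate carrier subunits Mpc1 and Mpc2 had 11 and 12 UMIs over both classes, and 6 of the 19 genes had none.

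Of 30 other HIF target genes, the 2 most abundant in pericytes were at 0 in endothelial cells. Ndufa4l2, a mitochondrial subunit induced by HIF-1 and abundant in pericytes, had 84 UMIs in pericytes, at 11.4, 9.44 and 8.51 per 10000 in the PDGFRB-gate plate of Gpr124 dEC/dEC and the CD31-gate and PDGFRB-gate plates of Gpr124 fl/fl. It was at least 10.8-fold lower in endothelial cells. Higd1b, another mitochondrial gene of pericytes, had 52 UMIs against 0, at least 6.69-fold lower. Loxl2, a lysyl oxidase that crosslinks matrix, had 33 against 5 UMIs, a log2 ratio of -1.35 (-3.06 to 0.02). P4hb, Mif and Bnip3l had 36, 36 and 29 UMIs over both classes, with log2 ratios of 0.55, 0.19 and 0.66 and intervals that held 0. None of the 30 genes passed the filter on low counts, and 8 had no UMI. Without that filter, edgeR tested 22 and called Ndufa4l2 and Higd1b lower in endothelial cells, with adjusted p-values of 3.41e-08 and 1.63e-05. Of all 10829 genes of that fit, 188 were called lower and 50 higher, and the median log2 fold change was -1.15. The list summed to 17.9 to 36.2 in endothelial and 27.0 to 41.8 in pericyte sums.

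Among 15 HIF partners and regulators, Elob, a subunit of the VHL ubiquitin ligase, had 8 UMIs in endothelial cells and 50 in pericytes, a log2 ratio of -1.27 (-2.56 to -0.18). Its partners Rbx1 and Eloc had log2 ratios of 0.54 (-0.82 to 1.81) and 0.79 (-1.48 to 2.87). The coactivators Crebbp and Ep300 had 25 and 8 UMIs in all, and Egln1, the main prolyl hydroxylase of HIF, had 2 in endothelial cells and 10 in pericytes, with intervals that held 0. The list summed to 6.04 to 19.0 per 10000 in endothelial and 14.3 to 17.7 in pericyte sums. Among 19 other glycolytic enzymes and isoforms, Pgam1, the phosphoglycerate mutase, had 7 and 17 UMIs and Gpi1, the glucose phosphate isomerase, 3 and 13. Pfkp, a platelet-type phosphofructokinase, had 0 and 9, 1.16-fold lower with the endothelial side set at the floor of 3 UMIs. Pfkl had 1 and 2, and 10 of the 19 had no UMI. None of the genes of these 2 lists passed the filter on low counts. Without that filter, edgeR tested 14 of the 15 and 9 of the 19 and called none, the only unadjusted p-values under 0.05 being those of Elob (adjusted p 0.0702) and Pfkp (adjusted p 0.316).

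Between the genotypes there was 1 sample each, so no test of genotype was possible and ratios carry counting intervals only. In endothelial cells, Epas1 had 9 UMIs in Gpr124 fl/fl (5.93 per 10000, 2.71 to 11.3) and 27 in Gpr124 dEC/dEC (17.0, 11.2 to 24.8). The log2 ratio of Gpr124 fl/fl over Gpr124 dEC/dEC was -1.52 (-2.79 to -0.39). The plate sums of the genotypes, 2.23 and 11.2 against 12.1 and 25.3, did not overlap, but the CD31-gate plate of Gpr124 fl/fl and the PDGFRB-gate plate of Gpr124 dEC/dEC were close. Of 538 genes with at least 10 endothelial UMIs, 20.3% were higher in both Gpr124 dEC/dEC plates. Within the CD31-gate plates the log2 ratio was -1.17 (-2.71 to 0.21), and within the PDGFRB-gate plates it was -2.43 (-5.64 to -0.27). Without the PDGFRB-gate plate of Gpr124 fl/fl it was -0.60 (-2.04 to 0.64), and without the Gpr124 dEC/dEC CD31-gate plate -1.03 (-2.45 to 0.34). Thinned to 1000 UMIs, 28.0% of Gpr124 fl/fl and 87.5% of Gpr124 dEC/dEC endothelial cells kept a UMI of Epas1, against 60.0% and 100% unthinned.

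Other values moved with the endothelial Epas1 ratio. The erythroid list stood at 153 per 10000 in Gpr124 fl/fl and 4.41 in Gpr124 dEC/dEC endothelial cells, and the endothelial marker list at 114 and 151. The stress and dissociation list stood at 17.8 and 29.0. Their part in the Epas1 ratio was not tested. Of the same 538 genes, 17.8% were at least 2-fold higher in Gpr124 dEC/dEC and 12.6% at least 2-fold higher in Gpr124 fl/fl. Of the 5 followed genes with as many UMIs, 1, Epas1, was at least 2-fold higher in Gpr124 dEC/dEC and 0 in Gpr124 fl/fl, and their median log2 ratio was 0.65 against 0.06 over the 538 genes.

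The enzymes had higher values in Gpr124 fl/fl endothelial cells, within counting error. Their sum was 32.3 per 10000 in Gpr124 fl/fl (49 UMIs) and 24.0 in Gpr124 dEC/dEC (38 UMIs), a log2 ratio of 0.43 (-0.21 to 1.08). Each of the 4 enzymes with at least 10 UMIs had a higher value in Gpr124 fl/fl with an interval that held 0. The log2 ratios were 0.70 for Gapdh (-0.61 to 2.09), 0.65 for Pgk1 (-1.43 to 2.92), 0.19 for Pkm (-1.12 to 1.51) and 0.94 for Ldha (-0.62 to 2.66). Ldha was higher in both Gpr124 fl/fl plates, at 8.03 and 6.70 against 3.38 and 4.02 per 10000, as were 13.9% of the 538 genes. Slc2a1 had 32 UMIs in Gpr124 fl/fl (21.1 per 10000) and 52 in Gpr124 dEC/dEC (32.8), a log2 ratio of -0.64 (-1.32 to 0.03). Hif1a, Hk1, Aldoa, Tpi1 and Eno1 were at or under the floor in both genotypes.

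**Figure D4:**
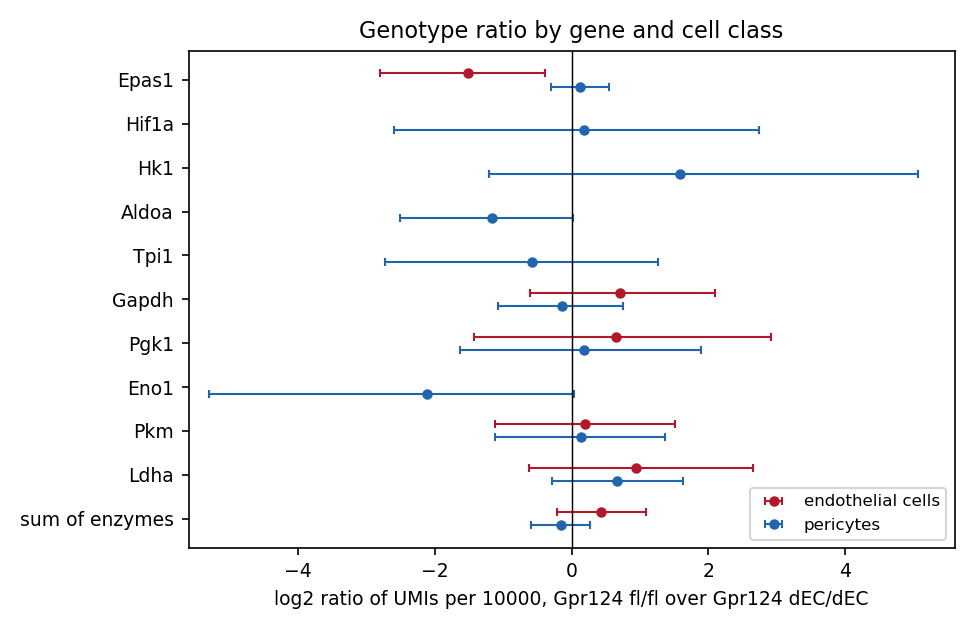
Log2 ratio of UMIs per 10000 in Gpr124 fl/fl over Gpr124 dEC/dEC for each gene with more than 3 UMIs in a genotype, in endothelial cells and pericytes. Points are ratios of pooled levels and bars exact conditional 95% intervals for counting error; the interval left out 0 only for Epas1 in endothelial cells (-2.79 to -0.39).

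In pericytes, Epas1 did not differ between the genotypes beyond counting error. It had 83 UMIs in Gpr124 fl/fl (25.8 per 10000, 20.6 to 32.0) and 115 in Gpr124 dEC/dEC (23.8, 19.6 to 28.5). The log2 ratio was 0.12 (-0.30 to 0.54), and 0.29 (-0.26 to 0.82) within the PDGFRB-gate plates. The enzyme sum was 23.0 and 25.6, a log2 ratio of -0.15 (-0.59 to 0.27). Hif1a had 3 and 4 UMIs, Hk1 4 and 2, and Tpi1 4 and 9. Pkm, Pgk1, Gapdh and Ldha had log2 ratios of 0.14, 0.18, -0.15 and 0.66, with intervals that held 0.

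Aldoa and Eno1 had lower values in Gpr124 fl/fl pericytes. Aldoa stood at 1.11 per 10000 in the Gpr124 fl/fl CD31-gate plate, 4.26 in the PDGFRB-gate plate of Gpr124 fl/fl and 5.58 in the Gpr124 dEC/dEC PDGFRB-gate plate. Its log2 ratio was -1.16 (-2.51 to 0.01). Eno1 stood at 0, 1.42 and 2.69 in the same plates, a log2 ratio of -2.11 (-5.30 to 0.03), and 2 of 9 against 8 of 12 pericytes had a UMI. The Gpr124 fl/fl CD31-gate plate was lowest for both, and Gpr124 dEC/dEC had no retained pericyte from a CD31-gate plate. On its CD31-gate plate, 1 well with Pdgfrb and no Cldn5 had 5973 UMIs. That well passed the upper limit of 8000 only after the plate was scaled by 1.93. It held Aldoa and Eno1 at 1.67 per 10000 each, from 1 UMI each. Within the PDGFRB-gate plates the log2 ratios were -0.39 for Aldoa (-1.96 to 0.91) and -0.92 for Eno1 (-4.11 to 1.22), and with no upper limit on UMIs -0.23 (-0.97 to 0.48) and -0.35 (-1.62 to 0.82). Of 1915 genes with at least 10 pericyte UMIs, 12.6% were at least 2-fold higher in Gpr124 dEC/dEC and 13.1% in Gpr124 fl/fl. Of the 8 followed genes with as many UMIs, these 2 were at least 2-fold higher in Gpr124 dEC/dEC and 0 in Gpr124 fl/fl, with a median log2 ratio of -0.01 against 0.01 over the 1915 genes.

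The stress and dissociation list moved the same way in pericytes, at 22.4 per 10000 in Gpr124 fl/fl and 44.7 in Gpr124 dEC/dEC. Of its 9 genes with at least 10 UMIs, 5 were at least 2-fold higher in Gpr124 dEC/dEC. Fos had 0 and 19 UMIs, at least 4.21-fold lower in Gpr124 fl/fl, and Jun had 5 and 23, a log2 ratio of -1.61 (-3.36 to -0.18). The part of this in the Aldoa and Eno1 values was not tested. Among other glycolytic enzymes, Gpi1 went the other way, with 3 UMIs in Gpr124 dEC/dEC and 10 in Gpr124 fl/fl, a log2 ratio of 2.33 (0.37 to 4.83). The HIF targets Ndufa4l2 and Higd1b had log2 ratios of -0.33 (-1.03 to 0.34) and -0.45 (-1.38 to 0.42).

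Among 307 genes with at least 50 UMIs, those whose levels over the 7 sums of class and plate were most like Epas1 were Bgn, Cd81, Tns1, Prdx5 and Fstl1. Their Pearson r on the log2(level + 1) scale was 0.96, 0.96, 0.96, 0.93 and 0.92. Like Epas1, Bgn (biglycan, a matrix proteoglycan) was high in the endothelial sum of the Gpr124 dEC/dEC CD31-gate plate, at 11.8 per 10000, and at 3.02, 1.61 and 0 in the other endothelial sums, with 11.6 to 15.0 in pericytes. Tns1, a focal adhesion protein, stood at 10.1 in that sum and at 2.01, 1.61 and 0 in the others. Bgn and Fstl1 were also called lower in endothelial cells than in pericytes, with edgeR log2 fold changes of -2.26 and -2.41. The list of pericyte markers stood at 18.6 in the endothelial sum of the Gpr124 dEC/dEC CD31-gate plate. The part of pericyte transcripts in that sum was not tested. The sum of the enzymes was most like the ribosomal protein genes Rps27a (r 0.98) and Rpl11 (0.95), followed by Cox4i1, Tmsb10 and Ppib. Rps27a stood at 3.38 in the endothelial sum of the Gpr124 dEC/dEC CD31-gate plate, where the enzymes were lowest, and at 23.4 in that of the PDGFRB-gate plate of Gpr124 fl/fl, where they were highest. The sums share plates and 7 points are few, so these correlations are descriptions.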

How the data were processed

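Cells were sequenced by SORT-seq, a plate method in which each well holds 1 sorted cell. Per the submitters' processing notes the authors used STARsolo 2.7.11b and GRCm38. They deposited 1 matrix per plate of estimated counts (UMIs per gene and well), which were not whole and were rounded here. Spike-ins were left out. All filters and class rules are given with the results, doublets were not called because of the few cells, and the 3 wells with both markers were left out. Plates were tied to gates by the library names and the sorting scheme, and wells of the CD31 gate in the Gpr124 dEC/dEC PDGFRB-gate plate could not be told apart.

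Class was tested with edgeR 4.0.16 (TMM, filterByExpr, glmQLFit, glmQLFTest, Benjamini-Hochberg, two-sided, threshold 0.05) on UMIs summed per class and plate. DESeq2 1.42.0, no low-count filter, plate as a block, genotype as a covariate, unscaled wells, a mitochondrial limit of 5%, no upper UMI limit and each plate left out were alternatives. The code was tested on simulated data. Ratios between genotypes and of pooled classes carry exact conditional binomial intervals at 95%, and the floor was 3 UMIs over a group. A fold given as at least a value sets a side with 0 UMIs at that floor and is not a limit of an interval. Thinned shares are means of 20 draws. Endothelial and pericyte sums of the same plate share a suspension and library, and their deviations from the class means correlated at 0.05, 0.03 and 0.04 in the 3 plates with both, none over 0.1.

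Besides the 10 genes, the text names the up to 6 genes with most UMIs of each list, list genes called in the class test, and the 5 genes most like Epas1 or the enzyme sum. Fos was named after its values were seen. The 10 genes and the lists were chosen with earlier results of these data known. R 4.3.3, Python 3.11.15, SciPy 1.17.1 and matplotlib 3.10.9 were used.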

Additional observations from a re-analysis of the deposited data

Results flagged for a closer look

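In the endothelial cells, Pkm in the Gpr124 fl/fl CD31-gate plate, at 9.64 UMIs per 10000, stood apart from the other 3 plates by Dixon's 95% criterion, which flags about 1 group in 20 by chance. The value came from 6 UMIs, and its counting interval, 3.54 to 21.0, held the values of the other 3 plates, 6.70 to 7.04. In the wells under 1000 UMIs, Aldoa stood apart by the same criterion in the Gpr124 dEC/dEC CD31-gate plate, at 11.5 per 10000. Its counting interval, 8.29 to 15.6, likewise held the values of the other plates, 9.03 to 9.36. The log2 ratio of Gpr124 fl/fl over Gpr124 dEC/dEC for the sum of the enzymes was 0.58 higher in endothelial cells than in pericytes. Both Gpr124 fl/fl plates were above both Gpr124 dEC/dEC plates in the former and below the Gpr124 dEC/dEC plate in the latter. The difference between the classes was not tested.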

How the results depend on the processing

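Of 323 values recomputed under the alternatives, 308 kept their direction and side of the threshold or moved by less than their error. A further 14 moved, and 1 lost its edgeR call. A ratio inside its main counting interval was taken as kept, also where its own interval came to hold 0. With a plate left out, this was so for the endothelial Epas1 genotype ratio and the pooled class ratios of Pkm and Aldoa. In the class comparison, 51 genes were called, 36 by DESeq2 and 238 without the low-count filter, where the median log2 fold change of all genes moved from 0.02 to -1.15; Epas1 was called in each, at -1.42 (adjusted p 0.0395) and -1.88 (adjusted p 0.00237). It was called too with plate as a block, at -2.0 (adjusted p 6.34e-07), where 46 genes and 1 of the followed genes were called; with this pairing no other followed gene passed the low-count filter, so none but Epas1 could be called. Leaving out each plate gave 32 to 54 genes called, 0 to 1 followed genes, and an Epas1 log2 fold change of -1.95 to -0.99; the call was lost without Gpr124 dEC/dEC replicate 2, the PDGFRB-gate plate. The endothelial Epas1 genotype log2 ratio ran from -2.93 to -0.60, lowest without the Gpr124 fl/fl CD31-gate plate. Those of the enzyme sum ran from 0.20 to 0.93 in endothelial cells and from -0.17 to -0.13 in pericytes, and that of Pgk1 in pericytes was 2.55 with a mitochondrial limit of 5%. The pooled class ratio of Pkm ran from 0.96 to 1.43, and its interval held 0 without the Gpr124 dEC/dEC PDGFRB-gate plate or the Gpr124 fl/fl CD31-gate plate. Thinning lowered the share of pericytes with a UMI for all 10 genes, and for 9 of them, Epas1 apart, to below its exact interval. The pooled class ratio of Aldoa ran from -1.87 to -0.39 with a plate left out. The list sums without Cldn5, Pdgfrb or Slc2a1 were added after the data were seen. With 1 suspension per genotype, counting error is the only error measured there, and 5 of the 10 genes were at or under 3 UMIs in the endothelial cells of both genotypes.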

Other observations

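The wells under 1000 UMIs held more glycolytic transcripts per 10000 UMIs than the retained cells. In 1478 such wells, the 8 enzymes summed to 54.2 UMIs per 10000 (51.2 to 57.3), at 52.1 to 59.7 in the 4 plates, against 28.0 in endothelial cells and 24.6 in pericytes. Pkm stood at 20.9 (19.1 to 22.9), with 19.6 to 22.8 by plate, and Aldoa at 9.53 (8.30 to 10.9). Epas1 stood at 6.96 (5.91 to 8.14), from 2.74 in the Gpr124 dEC/dEC CD31-gate plate to 11.8 in the Gpr124 dEC/dEC PDGFRB-gate plate. This level was near the 5.93 of Gpr124 fl/fl endothelial cells, but the wells differed from those cells in markers. By plate, the wells held the pericyte list at 50.9 to 92.3 and the endothelial list at 9.86 to 12.4. In the endothelial sums these lists stood at 8.93 to 36.9 and 112 to 184. Erythroid markers stood at 131 to 175 in the same wells. Whether these wells held cells, fragments or free RNA was not tested.

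Among the wells over 8000 UMIs after scaling, the 8 with Pdgfrb and no Cldn5 had 12 to 26 UMIs of Epas1 each, 21.2 per 10000 together, and 9 UMIs of Hif1a. The 3 such wells with neither marker had 1 to 3 UMIs of Epas1, 2.28 per 10000 together, and 4 UMIs of Eno1 each. Within the UMI and mitochondrial limits, the 3 wells with both markers had Epas1 at 22.4 (15.5 to 31.5). The 7 with neither had Epas1 at 3.03 (0.625 to 8.86) and the enzyme sum at 37.4 (26.3 to 51.6).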
